A study of Mus musculus with 15 samples.

Results

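The genes described here are 10 genes of epithelial cell-cell junctions and adhesion in mouse lung: Cdh1, Epcam, Cldn3, Cldn4, Cldn7, Cldn18, Ocln, Marveld3, Mpzl2 and Dsp. They were taken by symbol from the array's platform annotation, which gave 22 probe sets among the 45037 used and 10 genes among 18193. The genes had been chosen by their measured differences between lesions and normal cells on these same arrays, as earlier results gave them. Those differences are therefore given as a description, with no test, and "called" below states only that a gene passed the fit across all genes.

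Epithelial sheets are held together by a series of junctions. Tight junctions seal the space between cells with claudins and with MARVEL proteins such as Ocln, adherens junctions hold cells through Cdh1 (E-cadherin), and desmosomes tie the keratin filaments of neighbouring cells together through Dsp. In the lung these genes are used by the alveolar and airway epithelium, and loss of Cdh1 is a common sign that an epithelial tumour cell has taken on a mesenchymal form.

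All samples came from frozen lung sections of K-RasG12V knock-in mice whose lungs had been infected in vivo with an adenovirus carrying Cre recombinase 3 months earlier. Laser capture microdissection was used to cut out 8 samples of normal cells and 7 early hyperplastic lesions, the latter of about 500 cells each, from the same sections. The lesions were labelled H1 (3 samples, replicates 2, 3 and 4) or H2 (4 samples, replicates 1, 5, 6 and 7). Normal cells thus carried the same allele and came from infected lungs, and which cells the virus reached is not given in the sources used here, nor are age, strain, the number of mice, the mouse behind each sample or the basis of the H1 and H2 labels. Samples of 1 mouse are not independent, and p-values over them measure the spread between samples and may be too small.

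RNA was amplified, hybridised to Affymetrix arrays and deposited as RMA log2 values per probe set. Array medians lay between 3.87 and 4.06, but the spread of the log2 values over an array (SD over genes) was 1.38 ± 0.18 in normal cells (SD, n = 8), 1.42 ± 0.10 in H1 (n = 3) and 1.64 ± 0.12 in H2 (n = 4). Normal replicates 2 and 8 had the narrowest spread (1.14 and 1.20). All 11 markers measured for alveolar type 2 (AT2) cells, the surfactant-producing cells of the alveolus, had a higher mean in lesions, with a median difference of 1.67 and none called there. In H2 the lipid transporter Abca3 was called (2.35 ± 0.52, adjusted p = 0.0249, limma). Their summed level was 9.76 to 14.94 (log2) in normal cells, 13.57 to 14.74 in H1 and 14.38 to 15.05 in H2, while Nkx2-1, a defining factor of this lineage, lay below the middle of all probe sets (3.99) on every array. Markers of macrophages were higher in lesions for 7 of 8 genes and markers of endothelium for 1 of 12. Markers of alveolar type 1 cells were higher for 2 of 8 and those of fibroblasts for 4 of 10. The fibroblast marker Itga8 was lower in lesions (-2.46 ± 0.42, adjusted p = 0.0267, limma) and in H2 (-3.06 ± 0.42, adjusted p = 0.0028). The collagen gene Col1a2 and the club cell gene Cyp2f2 were called higher in H2, each by 1.57 (adjusted p = 0.0341 and 0.0308, limma). Of the fibroblast markers 5 of 10, and of the club cell markers 2 of 6, had a higher mean in H2, beside 46.3% of all genes. The club cell gene Aldh1a1 differed by -2.11 in H2 and was not called. In pieces of tissue, fewer cells of a type and less RNA per cell cannot be told apart, and the part of cell mixture or array spread in the differences below was not tested.

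Relative to normal cells, Mpzl2 and Marveld3 were called higher in the lesions as a whole, Mpzl2 in H1, and Cdh1, Marveld3, Mpzl2 and Dsp in H2. The median difference over the 10 genes was 0.70 (log2) for lesions against normal, beside -0.06 for all genes tested. Of the 10 genes, 2 were called higher in lesions, where 0.28% of all genes were, 1 in H1, where 0.011% were, and 4 in H2, where 2.89% were. None was called lower, beside 0.011%, 0% and 0.495% of all genes. The choice of genes used these same contrasts, so nothing is read from these shares.

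**Figure D1:**
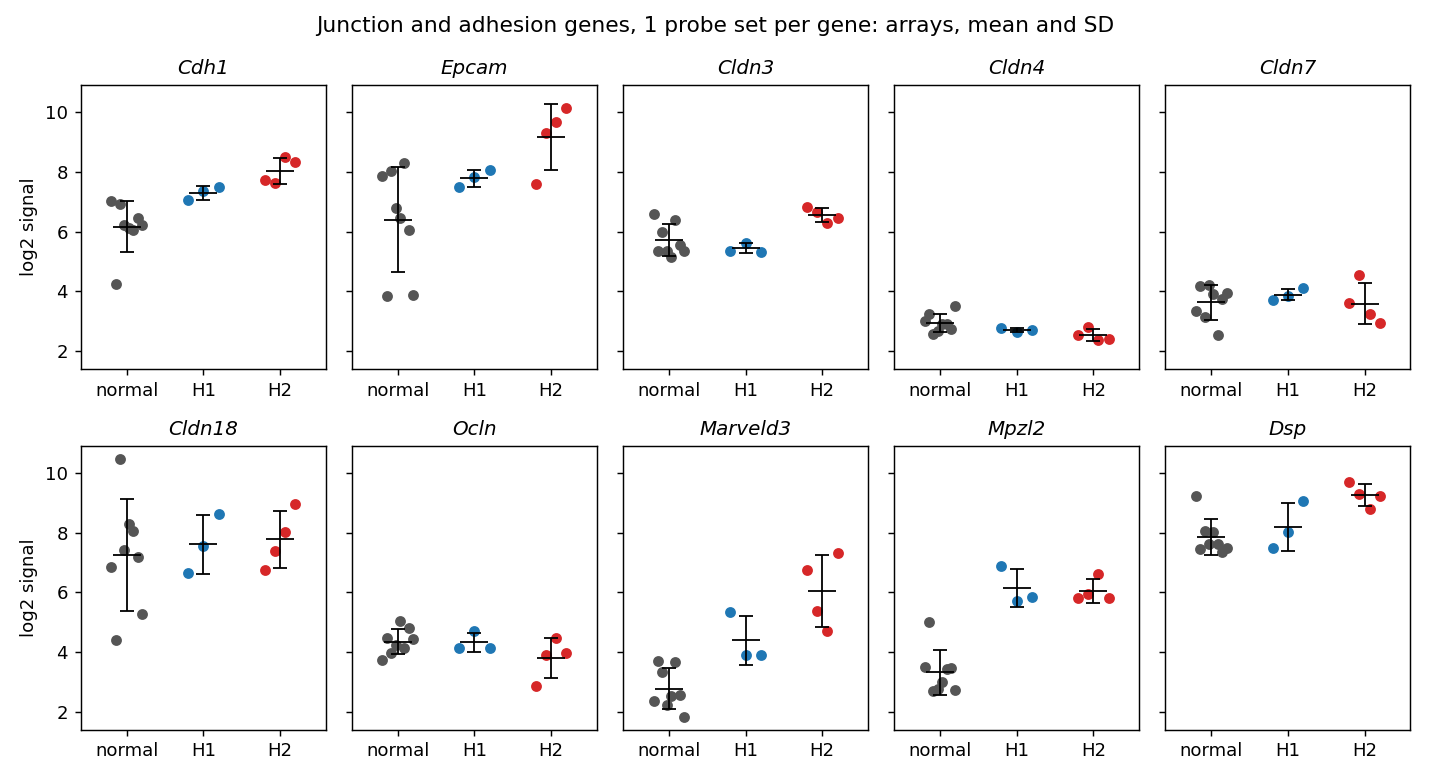
Log2 signal (y axis) of the probe set that stands for each of the 10 genes, with 1 point per array for normal cells (n = 8), H1 (n = 3) and H2 (n = 4), and the group mean ± SD as bars. Cdh1, Marveld3 and Mpzl2 lie higher on all 7 lesion arrays than on any normal array. Epcam, Cldn3, Cldn4, Cldn7, Cldn18, Ocln and Dsp overlap between lesion and normal arrays.

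Cdh1, the calcium-dependent adhesion molecule of adherens junctions, was measured by 1 probe set (1448261_at). Its log2 signal in normal cells was 4.25 at the lowest, 6.23 at the median and 7.02 at the highest. In H1 it was 7.05, 7.36 and 7.51, and in H2 it was 7.73, 7.62, 8.49 and 8.34. The 7 lesion values all lay above the 8 normal ones, the lowest H1 array by a narrow margin. The H2 mean exceeded the normal mean by 1.88 ± 0.39 (SE), or 3.69-fold, and the H1 mean by 1.14 ± 0.43, which was not called. The H2 call was lost without H2 replicate 6 or 7, at differences of 1.73 to 1.79, with quantile normalization repeated, and when the spread of each array was a covariate, at 1.00.

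Epcam, a homophilic adhesion protein of epithelia that binds and stabilises claudins, had the most variable level among normal samples after Cldn18. In normal cells the signal of 1416579_a_at ran from 3.86 through a median of 6.64 to 8.30. The H1 arrays gave 7.49, 7.82 and 8.07, and the H2 arrays 7.61, 9.31, 9.69 and 10.15. Normal cells and lesions overlapped, because 3 normal arrays reached 7.86 to 8.30. The means differed by 1.39 ± 0.87 in H1 and 2.78 ± 0.79 (6.89-fold) in H2, and neither was called. Epcam was called in H2 without normal replicate 1, 3 or 6, with array weights and with the mean of probe sets, and in all lesions with that mean. With array spread as a covariate the H2 difference was 0.56. A second probe set (1447899_x_at) gave 0.59 and 1.32. Among normal arrays the 2 probe sets ran opposite ways, at 3.86 and 6.37 on replicate 2 and at 8.05 and 3.86 on replicate 3. The part of this in the calls with the mean of probe sets was not tested.

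Upstream sequences are shown for Epcam and Cldn4, since both windows hold letters bound by known regulators of epithelial genes. Neither gene was called and Cldn4 was dim, so the signs of their differences from normal are not read beside the sequences. The RefSeq promoter table (GRCm38.p6) held 7 of the 10 genes; Cdh1, Marveld3 and Mpzl2 were not among them. Each window is the 250 bases before the start site, 5′ to 3′ on the gene's strand, at chr17:87635729-87635978 (+) for Epcam and chr5:134946935-134947184 (-) for Cldn4. Capitals mark CACCTG or its reverse complement CAGGTG, the E-box letters bound by Snail and Zeb repressors, and ACCGGT, the core of the site of grainyhead factors such as Grhl2.
Epcam: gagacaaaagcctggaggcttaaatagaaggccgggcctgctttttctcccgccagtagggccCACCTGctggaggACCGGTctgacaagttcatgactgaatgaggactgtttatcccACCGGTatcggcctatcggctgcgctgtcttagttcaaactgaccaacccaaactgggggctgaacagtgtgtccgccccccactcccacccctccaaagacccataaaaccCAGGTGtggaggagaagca
Cldn4: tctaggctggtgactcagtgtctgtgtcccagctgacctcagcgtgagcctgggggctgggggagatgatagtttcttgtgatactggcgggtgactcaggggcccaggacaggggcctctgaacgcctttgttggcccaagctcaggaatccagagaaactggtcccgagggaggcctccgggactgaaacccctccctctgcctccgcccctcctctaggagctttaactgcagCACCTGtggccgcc

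The Epcam window held CACCTG in 2 places, beginning 187 and 19 bases before the start, and ACCGGT in 2, beginning 174 and 131 bases before it. The Cldn4 window held CACCTG 1 time, 14 bases before the start. Of 32851 mouse windows of the same length, 17.2% held CACCTG on either strand, 1.86% held ACCGGT and 0.116% held the longer grainyhead site AACCGGTT, which contains ACCGGT and was in none of the windows of the 7 genes. The Dsp, Cldn3 and Cldn18 windows held none of these motifs, and of the pair of windows of Cldn7 and of Ocln, 1 each held CACCTG. A match is a string of letters and no measured site.

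Among the claudins, the strand-forming proteins of the tight junction, none was called. The 1460569_x_at signal of Cldn3 was 5.16, 5.45 and 6.60 at the lowest, median and highest normal array, 5.36, 5.63 and 5.33 in H1, and 6.83, 6.65, 6.28 and 6.45 in H2. H2 values lay above every H1 value and overlapped the upper normal ones. The differences from normal were -0.28 ± 0.29 in H1 and 0.83 ± 0.26 in H2. A further Cldn3 probe set (1434651_a_at) gave -0.12 and 0.74, and the remaining 2 gave differences between -0.21 and 0.07. The probe sets of Cldn3 thus did not give 1 common difference.

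Cldn4 was dim, at 2.58 to 3.52 in normal cells, 2.64 to 2.78 in H1 and 2.38 to 2.81 in H2. Cldn7, a partner of Epcam at the lateral membrane, was also below 5 on every array, at 2.55 to 4.23, 3.72 to 4.11 and 2.94 to 4.54. Their H2 means differed from normal by -0.41 ± 0.19 and -0.04 ± 0.33. These values lie near or below the middle of all probe sets, where a transcript change could be missed.

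Cldn18, whose lung isoform seals the alveolar epithelium, ranged from 4.40 through 7.31 to 10.49 in normal cells. The H1 arrays held 6.66, 7.57 and 8.62, and the H2 arrays 6.75, 7.38, 8.04 and 8.96, all inside the normal range. The differences were 0.36 ± 0.93 and 0.53 ± 0.84, smaller than their errors. With array spread as a covariate the H2 difference of Cldn18 was -1.73, in the other direction. An SD of 1.87 among normal samples, the widest of the 10 genes, sets that limit.

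The MARVEL proteins of the tight junction differed from each other. Ocln was 3.74 to 5.04 in normal cells, 4.13, 4.69 and 4.15 in H1, and 2.86, 3.92, 4.46 and 3.98 in H2, with differences of -0.03 ± 0.32 and -0.55 ± 0.29. Marveld3, at 1453264_at, was 1.83 at the lowest, 2.55 at the median and 3.68 at the highest normal array. Its values were 5.35, 3.92 and 3.91 in H1 and 6.76, 5.37, 4.72 and 7.31 in H2, all above the normal ones.

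The normal mean of Marveld3, 2.77, lay below the middle of all probe sets (3.99) and was not shown to be above background, so no fold is given. Marveld3 rose by 3.27 ± 0.48 (log2) in H2, and this call was kept in all 15 fits that left out 1 array. The H1 difference, 1.62 ± 0.53, was not called. Its rise in all lesions, 2.56 ± 0.48, was called in 7 of those 15 fits. The call was lost without normal replicate 4, 5, 7 or 8 or without any H2 array, at 2.23 to 2.66, and also with the mean of probe sets, with array spread as a covariate and with normal replicates 2 and 8 both left out. The other 2 Marveld3 probe sets did not share it, with H2 differences of -0.03 and -0.75 and H1 differences of -0.44 and -0.22.

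Mpzl2, an adhesion protein of the immunoglobulin superfamily related to myelin protein zero, differed from normal by nearly the same amount in both lesion subtypes. At 1416236_a_at the normal arrays ran from 2.70 through 3.21 to 5.01, and the highest of them was replicate 2, with the next at 3.48. The H1 values were 6.89, 5.73 and 5.85 and the H2 values 5.80, 5.94, 6.63 and 5.83. Every lesion value exceeded every normal one. Mpzl2 rose by 2.77 ± 0.31 (log2) in all lesions, by 2.83 ± 0.42 in H1 and by 2.73 ± 0.38 in H2. Its normal mean, 3.32, also lay below 3.99, and no fold is given for the same reason.

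The Mpzl2 calls in all lesions and in H2 were kept in all 15 fits without 1 array and under all 12 other settings tried. The call in H1 was kept only without normal replicate 2 or 3 and lost in the other 13 such fits, where the difference was 2.47 to 3.05. It was also lost with the mean of probe sets, with every probe set tested and with only the arrays compared. A second Mpzl2 probe set, 1448265_x_at, gave 1.25 in H1 and 1.60 in H2, and the remaining one, 1416237_at, gave 0.35 and 0.47. All 3 pointed the same way, with sizes that differed widely.

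Dsp, the plakin that anchors keratin filaments at the desmosome, was bright throughout. At 1435493_at it was 7.37, 7.62 and 9.24 at the lowest, median and highest normal array, 7.48, 8.03 and 9.08 in H1, and 9.72, 9.31, 8.81 and 9.24 in H2. Normal replicate 1 alone reached the H2 range. Dsp rose by 1.41 ± 0.35 (2.66-fold) in H2, while H1 differed by 0.34 ± 0.38. The H2 call held in 5 of the 15 fits without 1 array (without normal replicate 1, 3 or 6 or H1 replicate 2 or 4) and was lost in the other 10, at 1.26 to 1.56. It was also lost under 5 of 12 other settings. Its second probe set gave 0.73 in H2 and the remaining one -0.15.

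**Figure D2:**
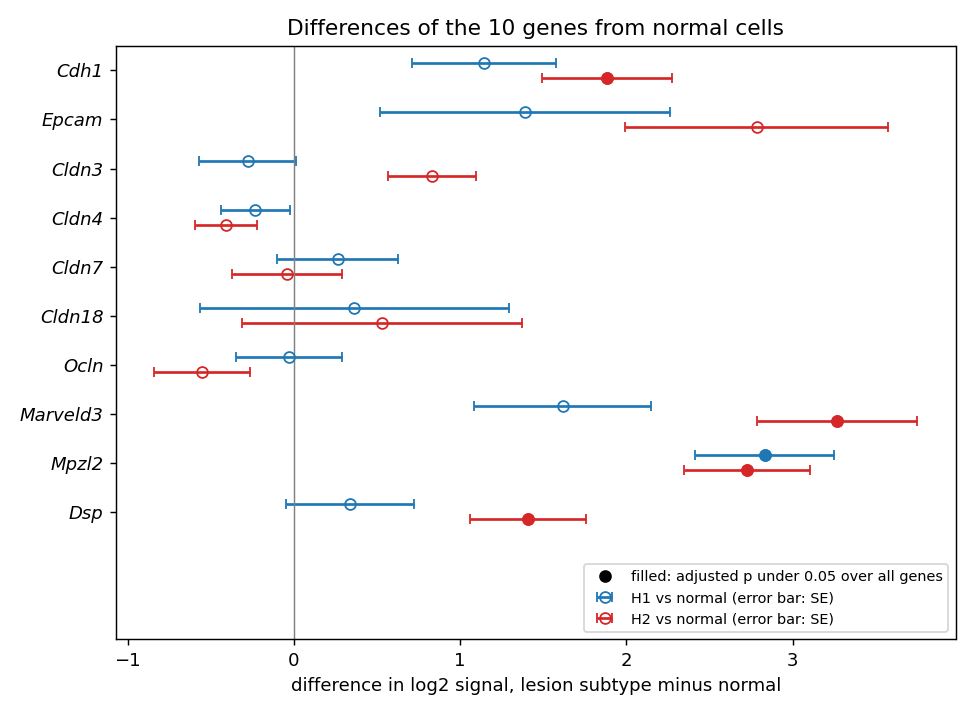
Difference in log2 signal between each lesion subtype and normal cells (x axis, error bars SE) for the 10 genes, with filled symbols where the adjusted p over all genes was under 0.05. Mpzl2 is called in both subtypes and Cdh1, Marveld3 and Dsp in H2 only, which is no test of H1 against H2.

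Over all probe sets of these genes, 11 of 22 had a higher mean in H1 than in normal cells and 13 of 22 in H2, beside 42.9% and 42.6% of all probe sets. The probe sets of Epcam and Mpzl2 each pointed up, those of Ocln down, and those of Marveld3, Dsp, Cldn3 and Cldn18 were divided in H2. Probe sets of a gene share transcripts and are not replicates.

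**Figure D3:**
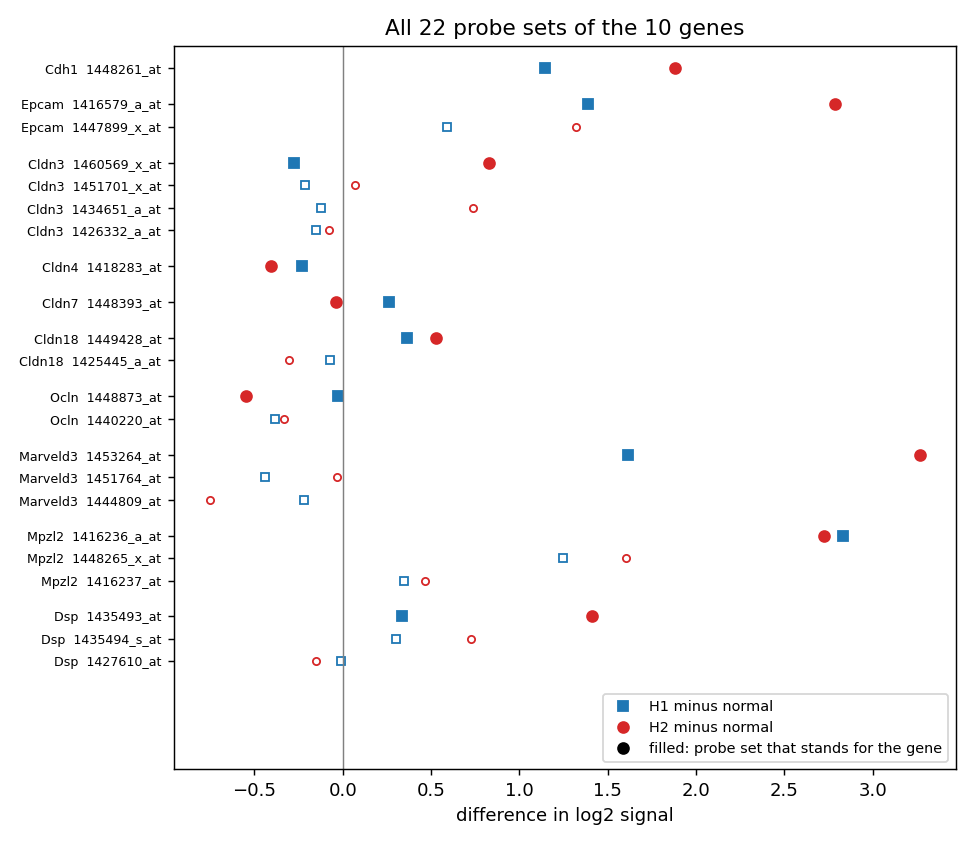
Difference in log2 signal from normal cells (x axis) for each of the 22 probe sets, in H1 (squares) and H2 (circles), with filled symbols for the probe set that stands for its gene. For Marveld3 the filled probe set lies at 1.62 and 3.27 and the other 2 lie below 0.

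None of the 10 genes was called between H1 and H2, a comparison in which 0% of all genes were called higher and 0.0055% lower in H1. At an unadjusted p under 0.05 in the limma fit, 0 were higher and 3 lower, beside 4.9% and 7.41% of all genes. The basis of the H1 and H2 labels is not given. If they were set from these same profiles, comparisons between H1 and H2 are not independent of the labels. Cdh1 and Cldn3 had every H1 value below every H2 value, as did 10.1% of all genes. The H1 mean was below the H2 mean by 0.74 ± 0.49 for Cdh1, 1.11 ± 0.33 for Cldn3, 1.07 ± 0.43 for Dsp and 1.65 ± 0.60 for Marveld3, whereas Mpzl2 stood 0.11 ± 0.47 above it. With array spread, which was wider in H2, as a covariate, the difference of H1 from H2 turned direction for Cdh1 (0.022), Epcam (0.51, from -1.39), Cldn18 (1.78, from -0.17), Cldn4 (-0.065, from 0.18), Cldn7 (-0.25, from 0.31) and Mpzl2 (-0.27).

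Cdh1, Marveld3 and Mpzl2 did not overlap between normal cells and lesions, or between normal cells and either subtype. Among all genes, 0.187% were higher without overlap in all lesions, 0.5% in H1 and 2.7% in H2. Their values can be set beside the AT2 markers array by array. The mean AT2 marker signal was 4.98 to 9.31 in normal cells, 7.59 to 8.94 in H1 and 8.29 to 9.51 in H2. Normal replicates 1, 3 and 6, at 8.08, 9.31 and 8.07, lay within the range of the lesions. On these 3 arrays the probe set that stands for Epcam was 7.86, 8.05 and 8.30, inside its lesion range. Mpzl2 was 3.48, 2.70 and 3.42 on them and Marveld3 2.37, 3.33 and 3.66. That Mpzl2 and Marveld3 lie below all lesion values there follows from groups that do not overlap, in genes chosen by that difference. It says nothing of cell content.

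**Figure D4:**
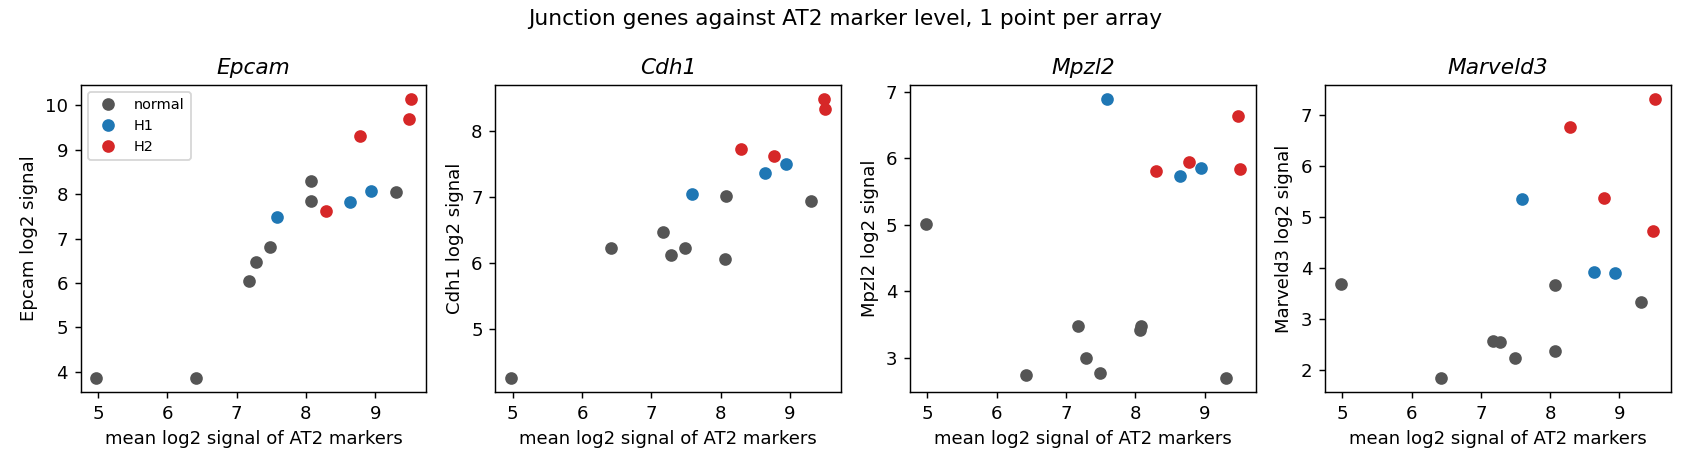
Log2 signal of Epcam, Cdh1, Mpzl2 and Marveld3 (y axes, scaled separately) against the mean log2 signal of 11 AT2 markers (x axis), 1 point per array. The probe set that stands for Epcam is higher on normal arrays with more AT2 marker signal. The gap between normal and lesion arrays in Cdh1, Mpzl2 and Marveld3 belongs to the values that chose these genes.

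Among the 8 normal samples, which the choice of genes by lesion contrasts did not split, 29 relations were computed between the 10 genes, the AT2 markers and array spread, each with an exact two-sided permutation test. The probe set that stands for Epcam rose with the AT2 mean (Pearson's r = 0.901, exact permutation p = 0.000645, adjusted p = 0.0187). Spearman's rho was 0.929 (exact permutation p = 0.00223, adjusted p = 0.0647). Without the 2 samples farthest from the median AT2 level, r was 0.990. Epcam was 3.86 and 3.87 on normal replicates 2 and 8 and at least 6.05 on the other 6, among which r was 0.799 (exact permutation p = 0.0361). The relation missed the threshold without normal replicate 2 (r = 0.860, adjusted p = 0.203 by the exact permutation test) or 8 (0.939 and 0.0662). It also missed it when the probe sets of a gene were averaged (0.695 and 0.129). The second Epcam probe set was highest (6.37) on normal replicate 2, where the AT2 mean was lowest (4.98). It was lowest (3.86) on normal replicate 3, where the AT2 mean was highest (9.31). The relation therefore holds for a single probe set and is not read as a property of the gene.

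The probe set that stands for Epcam also rose with the spread of the array (r = 0.916, exact permutation p = 0.00191, adjusted p = 0.0277). Its rho was 0.857 (exact permutation p = 0.0107, adjusted p = 0.149). This relation missed the threshold without normal replicate 1, 2, 3, 6 or 8. Among the 6 arrays of wider spread this r was 0.866, with an exact permutation p of 0.0569. The AT2 level and array spread therefore could not be told apart as companions of this probe set. The second Epcam probe set was highest on the normal array of narrowest spread (replicate 2, 1.14) and lowest on that of widest spread (replicate 3, 1.67). Cldn18 followed the AT2 mean as well (r = 0.909, exact permutation p = 0.00382, adjusted p = 0.0369), but with rho = 0.690 (exact p = 0.0694, adjusted p = 0.252) and r = 0.631 without the 2 farthest samples. That relation rests on those samples, and it missed the threshold without any 1 of normal replicates 2, 3, 4, 6, 7 and 8. Cdh1 and the AT2 mean gave r = 0.853 (exact permutation p = 0.0119, adjusted p = 0.0688; rho = 0.619, exact p = 0.115), and r = 0.343 without the 2 farthest samples. Mpzl2 and Cdh1 gave r = -0.790 (exact permutation p = 0.0751, adjusted p = 0.177; rho = -0.238), and r = -0.317 without them.

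As a description over all 15 arrays, which share groups and array spread, the genes whose signal was most like that of Cdh1 were Cul4a (Pearson's r = 0.945), Cstb (0.944), Atp6v1g1 (0.941), Ctsh (0.940), Rpl4 (0.939) and Elovl1 (0.936). Epcam gave r = 0.831, Dsp 0.713, Marveld3 0.594, Cldn3 0.541, Mpzl2 0.539 and Cldn18 0.535, while Cldn7 gave -0.249, Ocln -0.371 and Cldn4 -0.726. The median over all genes was -0.03. Cdh1 itself correlated with array spread at r = 0.809. After group means were subtracted, Mpzl2 gave r = -0.640 with Cdh1, Marveld3 -0.334, Epcam 0.664 and Cldn18 0.677. Normal replicate 2 had the lowest Cdh1 signal (4.25) and the highest Mpzl2 signal among normal arrays (5.01). Among the 6 normal arrays left without replicates 2 and 8, r with Cdh1 was 0.0086 for Mpzl2, -0.086 for Marveld3, 0.345 for Epcam and 0.197 for Cldn18.

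The wider junction machinery was read from 8 lists holding 94 measured genes that are not among the 10. These lists were chosen with earlier results of these data known, so their counts and shares are a description only. By limma with Benjamini-Hochberg adjustment, 5 of the 94 were called higher in H2 (background 2.89%) and 0 lower. None was called in all lesions, in H1 or between H1 and H2. At an unadjusted p under 0.05, 11 were higher and 1 lower in lesions, beside 8.1% and 4.66% of all genes. In H1 these were 2 and 1, beside 1.85% and 2.39%. In H2 they were 22 and 3, beside 2311 and 1582 of all 18193 genes. Between H1 and H2, 5 were higher and 12 lower in H1, where all genes gave 4.9% and 7.41%. Their median difference was 0.13 both in lesions and in H2.

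Regulators of epithelial identity, a list of transcription factors and the splicing regulators Esrp1 and Esrp2, held 3 of the 5. Of its 12 measured genes 9 had a higher mean in lesions, beside 42.3% of all genes. Grhl2, which activates genes of the apical junction, was 4.63, 4.95 and 6.37 at the lowest, median and highest normal array, 5.49 to 6.76 in H1 and 7.02 to 7.53 in H2. It rose by 1.94 ± 0.36 in H2 (adjusted p = 0.0112, limma), although only 1 of its 4 probe sets was higher and the lowest gave -0.38. Foxa2, a forkhead factor of the respiratory epithelium, rose by 1.30 ± 0.23 (adjusted p = 0.00939, limma), with values of 4.80 to 5.93 in normal cells and 6.33 to 6.96 in H2. Both calls were kept in all 15 fits without 1 array and lost with repeated quantile normalization or spread as a covariate, that of Grhl2 also with the mean of probe sets.

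The Ets factor Ehf rose by 1.51 ± 0.39 in H2 (adjusted p = 0.0422, limma). That call was kept in 5 of the 15 fits without 1 array, namely without normal replicate 1, 2 or 3, H1 replicate 2 or H2 replicate 1, and was lost under 5 of 12 other settings. Foxa1 differed by 1.25 (adjusted p = 0.077), short of the threshold.

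The remaining calls were the membrane protease inhibitors Spint2 and Spint1, which act on matriptase, a protease that can cleave Epcam. They rose in H2 by 0.72 ± 0.18 and 0.97 ± 0.26 (adjusted p = 0.0422 and 0.0497, limma). Spint2 kept its call in 5 of the 15 fits without 1 array (without normal replicate 1, 3 or 6, H1 replicate 2 or H2 replicate 1), and Spint1 in 3, without normal replicate 1, 3 or 6. Their calls were lost under 8 and 7 of 12 other settings, and Spint2 turned to -0.36 with quantile normalization repeated. Matriptase itself (St14) differed by 0.96 (adjusted p = 0.119), and Mpzl1, the relative of Mpzl2, by -0.12 (adjusted p = 0.751).

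No scaffold or polarity gene of the tight junction was called among 21. Crb3, the epithelial member of the Crumbs polarity complex, came nearest, with 1.49 ± 0.34 in lesions (adjusted p = 0.072, limma) and 1.53 in H2 (0.054), Ybx3 differed by 1.53 in H2 (0.171) and Patj by 0.66 (0.135). Of 12 other claudins none was called and their median in H2 was -0.30. Cldn12 differed by 2.12 ± 0.65 in H2 (adjusted p = 0.083), Cldn2 by 1.66 (0.273), Cldn15 by -0.42 (0.250) and Cldn5, the endothelial claudin, by -0.79 (0.260).

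The 14 other adherens junction genes had a median of 0.38 in H2 and held no call. Ctnnb1 (beta-catenin), which links Cdh1 to alpha-catenin, was 5.95 to 11.76 in normal cells and 11.88 to 12.39 in H2, a difference of 1.95 (adjusted p = 0.193, limma). Afdn differed by 0.85 (0.237) and Nectin2 by 0.56 (0.282). Among 11 other desmosome genes, Perp differed by 1.70 (adjusted p = 0.066), Pkp4 by 1.69 (0.133), Pkp2 by 0.85 (0.20) and Dsc2 by -0.49 (0.333). None of those 11 was called in H2, where 2.89% of all genes were called higher and 0.495% lower.

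Repressors of Cdh1 and mesenchymal genes had a median of 0.00 in H2 over 12 genes, none of them called. The nearest to the threshold was Fn1, fibronectin, at 1.36 in H2 (adjusted p = 0.069, limma), with its other probe set at -0.53. S100a4 differed by 0.81 (0.245), Cdh11 by -0.60 (0.543) and Twist2 by -0.33 (0.405). Of the other repressors in the list, Snai1, Zeb1, Zeb2 and Twist1 differed by -0.02, -0.54, 0.02 and -0.14, Snai2 by 0.72 and Tcf4 by 0.63. Vimentin (Vim) differed by 0.79, and N-cadherin (Cdh2) by -0.17 at a mean of 2.51 in H2. Genes of endothelial junctions had a median of -0.58 in H2 over 7 genes, with Jam3 at -0.67 (adjusted p = 0.20), Ptprb at -0.65 (0.450) and Esam at 0.68 (0.216).

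**Figure D5:**
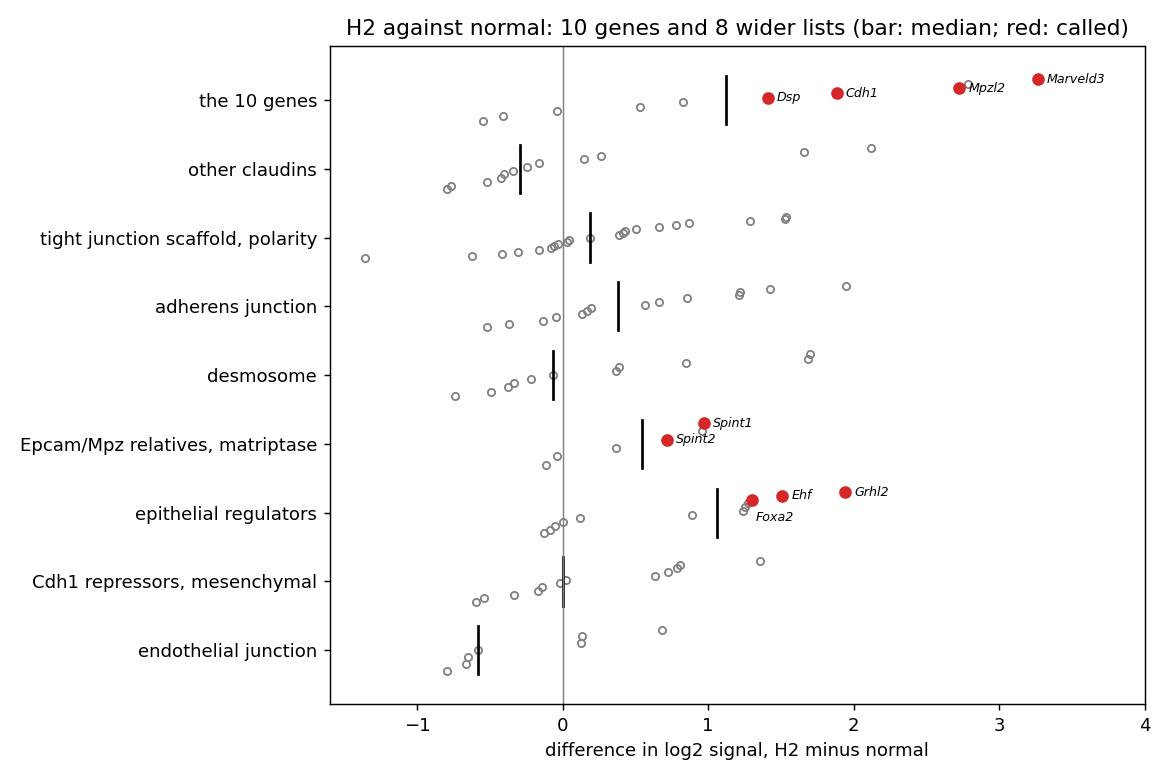
Difference in log2 signal, H2 minus normal (x axis), for the 10 genes and for the measured genes of 8 wider lists, with a bar at each median and filled red points for called genes. Called genes outside the 10 are Grhl2, Foxa2 and Ehf among the epithelial regulators and Spint1 and Spint2 beside matriptase.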

How the data were processed

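The values were measured on 15 Affymetrix arrays of microdissected mouse lung cells (8 normal, 3 H1, 4 H2). The deposited table holds log2 signals per probe set that the authors made with the affy package and RMA, per the submitters' processing notes, with no version given. RNA was extracted with PicoPure and amplified with WT-Ovation One-Direct, per the labels' protocols. Of 45101 probe sets, 64 controls were left out. Symbols came from the platform annotation (34945 probe sets with 1 symbol, 932 with several, 9160 with none), and the probe set with the highest mean stood for a gene. Groups were compared with limma 3.58.1 (R 4.3.3; lmFit, eBayes) in fits of 2 and 3 groups over all 18193 genes, with Benjamini-Hochberg adjustment and calls at an adjusted p under 0.05. The fit was tested on simulated data. The members and the gene lists were chosen with earlier results of these data known. Named genes were all 10 members, up to 3 genes per list with the lowest p in lesions and in H2, any called, and the 6 genes most like Cdh1; the other members of the repressor list, and the called cell type markers, were added after their values were seen. Samples that shared a number across groups were not treated as pairs, and whether they share a mouse is not known. The number of arrays limits the precision.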

Additional observations from a re-analysis of the deposited data

Results flagged for a closer look

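In groups of 4 to 10 arrays, 5 of 44 probe set and group combinations held an array that stood apart by Dixon's criterion, which chance gives in about 1 of 20. Normal replicate 2 had the lowest Cdh1 signal, 4.25, with the next at 6.07, and the highest Mpzl2 signal, 5.01, with the next at 3.48. It also had the narrowest spread of all arrays. H2 replicate 6 had the highest Mpzl2 signal among H2, 6.63 against 5.94. Normal replicate 1 had the highest Dsp signal among normal arrays, 9.24 against 8.06. H2 replicate 1 had the highest signal at the Cldn3 probe set 1451701_x_at, 6.26 against 5.84.

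Cldn3 was flagged at 1460569_x_at, because all 3 H1 arrays lay below and all 4 H2 arrays above the normal mean of 5.72. At this probe set the H1 mean minus the H2 mean was -1.11 in the limma fit, which did not pass the threshold over all genes. At 1434651_a_at, H1 replicate 2 was 5.68, above the normal mean of 5.59.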

How the results depend on the processing

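Samples that shared a number across groups were not treated as pairs. Their deviations from group means gave r from -0.143 to 0.380 over 7 pairs, with the own number best in 1 of 7. With few arrays per group, this check cannot decide whether samples of the same number share a mouse. The replicate block called 3 of the 10 genes in lesions and 4 in H2, and 1 other junction gene in lesions.

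Members called in lesions (2 in the report) numbered 1 with the filter on dim genes, 1 with array spread as a covariate and 1 without the 2 narrowest normal arrays (chosen after seeing the data), and 1 to 3 when 1 array was left out. In H1 (1) they numbered 0 with the mean of probe sets, 0 with every probe set tested, 0 with only the arrays compared, and 0 to 1 without 1 array. In H2 (4) they numbered 2 with repeated quantile normalization, 2 with the spread covariate, 6 with array weights, 3 each with the filter on dim genes, the trend and robust options and the 2 narrowest normal arrays left out, and 2 to 6 without 1 array. Between H1 and H2 none was called under any setting run. Other junction genes called in lesions (0) numbered 2 with array weights, 1 with the spread covariate and 0 to 3 without 1 array; in H1, 0 to 0 without 1 array; between H1 and H2, 1 with array weights. In H2 (5) they numbered 0 with quantile normalization, 3 with the mean, 3 with the most variable probe set, 2 with every probe set tested, 3 with the trend and robust options, 17 with array weights, 2 with only the arrays compared, 2 with the spread covariate, 2 without the 2 narrowest normal arrays, and 2 to 12 without 1 array. Relations among normal arrays past the threshold (3) numbered 0 with the mean of probe sets and 0 to 4 without 1 array.

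Directions reversed for genes that were not called, and for Spint2. Among the 10 genes with the spread covariate, lesion differences were -0.036 for Cldn3 (from 0.35) and -0.67 for Cldn18 (from 0.46). H2 differences were then -1.73 for Cldn18 (from 0.53) and 0.61 for Cldn7 (from -0.04). Lesion differences of other genes with this covariate were -0.13 for Cldn2, 0.069 for Cldn15, -0.28 for Afdn and -0.18 for Pkp4. Those of St14 and Jam3 were -0.066 and 0.15. H2 differences of other genes with it were -0.14 for Ctnnb1, -0.22 for Afdn, -0.030 for Pkp4 and -0.026 for S100a4. With the mean of probe sets and the most variable one, Patj was -0.025 and -0.53 in lesions (-0.84 in H2 with the latter) and Mpzl1 0.38 and 0.97 (0.76 and 1.63 in H2); Cdh11 was 0.11 in H2 with the mean. Spint2 was -0.0891 in lesions and -0.36 in H2 with quantile normalization. Jam3 ran from -0.35 to 0.0016 in lesions without 1 array. Without 1 array, Cldn7 ran from -0.065 to 0.22 in lesions and from -0.36 to 0.18 in H2. The H1 ranges of such fits were -0.14 to 0.84 for Cldn18, -0.21 to 0.070 for Ocln and -0.11 to 0.69 for Dsp. The cause of these changes was not tested. Dim genes and the few arrays per group limit what could be seen.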
